A study of Homo sapiens with 3 samples.

Results

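Among the H3K36me3 peaks of untreated LNCaP cells, 1842 scored at least 150 and had no peak of the dihydrotestosterone (DHT) library within 1000 bp of either edge. They were 9.93% of the 18541 untreated peaks that reached that score on chromosomes 1 to 22, X and Y. Of all 117564 untreated peaks there, 32.3% had no DHT peak at that distance. The remaining 16699 peaks of the same score, each with a DHT peak within 1000 bp, served as the comparison. LNCaP is an established prostate cancer cell line that responds to androgen, and both libraries are chromatin immunoprecipitation sequencing with an antibody to histone H3 trimethylated at lysine 36. One group is cells given 100 nM DHT for 4 h in red-free RPMI medium, and the other is cells labelled as having no treatment, kept in RPMI with serum. Whether the medium was changed along with the hormone is not clear from the labels, so the effects of hormone and medium cannot be told apart. Each condition has 1 library, so no difference between conditions could be tested, and it is unknown how many such peaks a repeat library of either condition would give.

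H3K36me3 is laid down along transcribed gene bodies by the methyltransferase SETD2, which travels with elongating RNA polymerase II, so the mark forms broad domains and is richest toward the downstream ends of active genes. DHT, the potent androgen made from testosterone, binds the androgen receptor, a transcription factor that raises and lowers the transcription of many prostate genes. A narrow-peak caller run over a broad mark breaks a domain into many short peaks, and a missing peak says that a threshold was not passed there, not that the mark was absent. No annotation or sequence of the files' build, hg19, was at hand, so the peaks are placed by coordinate, chromosome and neighbouring peaks, and no gene or sequence is given for them.

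The DHT list held 131798 nuclear peaks over 66.0 Mb and the untreated list 117564 over 64.3 Mb. Deposited scores ran from 50 to 3100 in both, with medians of 85.7 in the DHT list and 81.2 in the untreated list. The score is the authors' own value for a peak on a scale that they do not state in the files, and the read depth behind it is unknown. Intervals on shares are 95% Wilson intervals and those on medians rest on order statistics. All cover counting error only and treat neighbouring peaks as independent, which they are not. Both the score and the distance to DHT peaks chose the 1842 peaks, so what follows describes them and tests nothing.

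Strong untreated peaks without a DHT peak were a small part of their score range. Their share of 9.93% has an interval of 9.51% to 10.4%. The share without a DHT peak was 43.9% at scores of 50 to 75, 32.8% at 75 to 100 and 23.8% at 100 to 150. It was 13.7% at 150 to 200 (1244 of 9054), 8.05% at 200 to 300 (518 of 6432), 2.997% at 300 to 500 (76 of 2536) and 0.771% at 500 and more (4 of 519). The share was thus lower in each higher score class. Median scores were 181 for the peaks without DHT and 205 for their comparison peaks. Width and the flanks at 50 to 500 kb are therefore also given within score classes below. The other comparisons are over all strong peaks unless a weighting or a score limit is stated. Most of the comparison peaks, 92.1%, were overlapped by a DHT peak outright, and 7.89% had one at 1 to 1000 bp.

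The thresholds did not fall at a break in the data. Up to 5 above the score limit lay 203 peaks with a median width of 385 bp and a median distance of 2997 bp to the nearest DHT peak. Up to 5 below it lay 292 without a DHT peak, with medians of 348 bp and 3570 bp. Strong peaks whose nearest DHT peak lay up to 200 bp beyond the distance limit numbered 160, with a median width of 420 bp. Those with a DHT peak up to 200 bp within it numbered 205, with a median of 403 bp.

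The peaks without DHT were narrow for their score. Their median width was 388 bp (377 to 400 bp), with quartiles of 277 and 570 bp, against 665 bp (656 to 673 bp), with quartiles of 422 and 1093 bp, for other peaks of at least the same score. The difference held in each of the score classes up to 500. At 150 to 200 the medians were 375 and 566 bp, at 200 to 300 they were 422 and 693 bp, and at 300 to 500 they were 449 and 907 bp. In none of these classes did the intervals of the medians overlap. At 500 and more, the 4 peaks without DHT had a median of 1115 bp, inside the quartiles of the others, 775 and 1745 bp. Untreated peaks below the score limit were also narrower without a DHT peak than with one, so the trait is not particular to strong peaks. Their medians were 304 and 361 bp at 50 to 75, 313 and 416 bp at 75 to 100, and 324 and 480 bp at 100 to 150.

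Few peaks without DHT were wide. Only 123 of them (6.68%) were at least 1 kb wide, against 28.6% of the others, and 21 (1.14%) were at least 2 kb wide, against 8.07%. In all they covered 0.901 Mb, against 15.1 Mb for the others.

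Read the other way, the share without a DHT peak was lower at greater width in each score class up to 500. At scores of 150 to 200, 31.0% of peaks under 300 bp had no DHT peak (406 of 1309). The share was 16.7% at 300 to 500 bp, 9.08% at 500 to 1000 bp, 4.31% at 1000 to 2000 bp and 3.17% at 2000 bp and more. At 200 to 300 it was 23.8% under 300 bp and 1.15% at 2000 bp and more. A wider peak also reaches over more sequence in which a DHT peak would be counted. With distance measured from the middle of the peak instead, so that width no longer entered, 1653 strong peaks had no DHT peak within 1500 bp. Their median width was still 393 bp, against 658 bp for the rest.

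**Figure D1:**
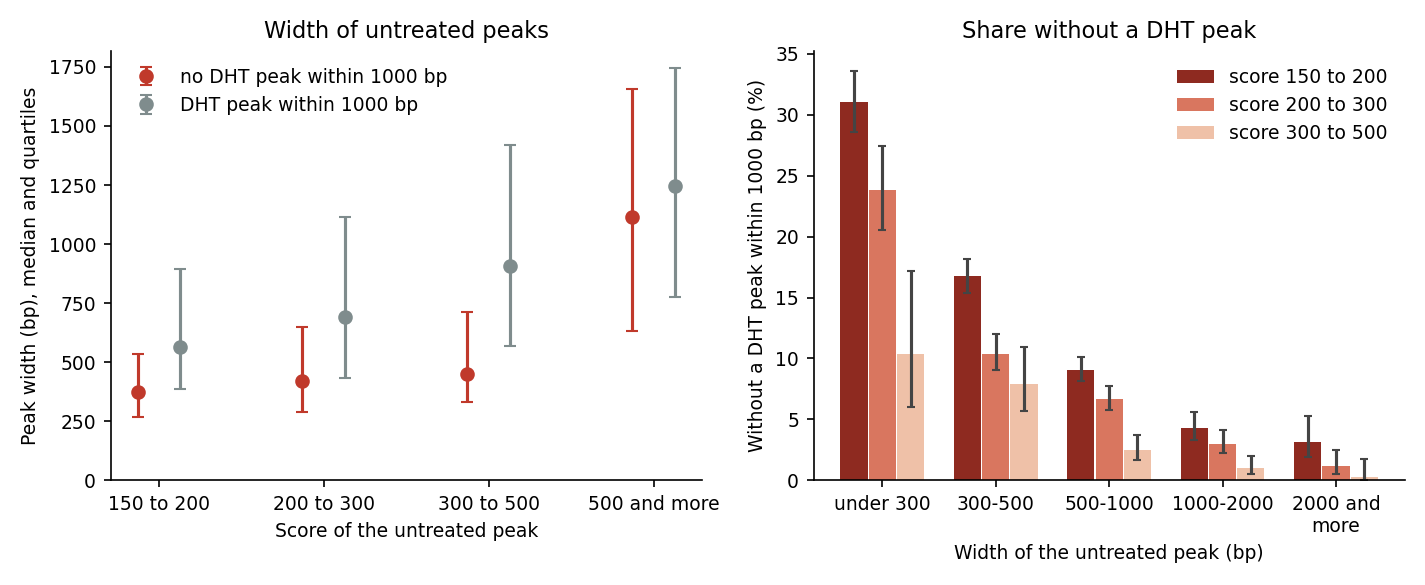
Left, median width in bp (points) and quartiles (bars) of untreated H3K36me3 peaks in 4 score classes, for peaks without a DHT peak within 1000 bp (red) and with one (grey). Right, percentage of strong untreated peaks without a DHT peak by width, within 3 score classes, with 95% Wilson intervals. At scores of 150 to 200 the share is 31.0% for peaks under 300 bp and 3.17% for those of 2000 bp and more.

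Although no DHT peak lay within 1000 bp, one was usually close beyond. The nearest DHT peak was at a median of 2910 bp, with quartiles of 1679 and 5715 bp. It lay at 1 to 2 kb for 610 peaks (33.1%), at 2 to 5 kb for 676 (36.7%), at 5 to 10 kb for 349 (18.9%), at 10 to 50 kb for 178 (9.66%) and beyond 50 kb for 29 (1.57%). DHT peaks stood on both sides within 5 kb for 508 of the 1842 (27.6%), within 10 kb for 1018 (55.3%) and within 50 kb for 1605 (87.1%). Within 10 kb most of these peaks thus had DHT peaks left and right, and within 5 kb a minority did. All gaps between consecutive DHT peaks had a median of 4359 bp, and the same shares were not computed for the other strong peaks. Scores of the nearest DHT peaks had a median of 100, against 85.7 over the whole DHT list, and 26.1% of these nearest peaks scored at least 150, against 18.8% of the list. For the comparison peaks the nearest DHT peak, mostly the overlapping one, had a median score of 172.

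From 1 to 5 kb out, sequence around the peaks without DHT was covered somewhat less than around the others. DHT peaks covered 6.95% of it, against 7.56% around the other strong peaks. Untreated peaks covered 6.04% of it, against 6.99%. Which group had more DHT coverage depended on the distance within this range. Just beyond the margin, at 1000 to 1412 bp, DHT peaks covered 4.19% around the peaks without DHT and 10.03% around the others, and at 3979 to 5620 bp they covered 6.76% and 8.79%. Between 2817 and 3979 bp from the edges, DHT peaks covered 7.39% of sequence near the peaks without DHT and untreated peaks 5.52%. Over the same distance the other strong peaks had 6.40% under DHT peaks and 5.70% under untreated peaks. The untreated profile was low at that distance and high at 5620 to 7937 bp in both groups, where it reached 8.34% around the peaks without DHT and 11.0% around the others.

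Farther out, DHT coverage was lower than untreated coverage around more of the peaks without DHT than around the others. At 5 to 50 kb, DHT peaks covered 5.88% and untreated peaks 6.43% of sequence around the peaks without DHT. Around the others these values were 7.93% and 8.19%. DHT coverage was the lower of the 2 libraries around 64.8% of the peaks without DHT (62.6% to 67.0%) and around 58.4% of the others (57.7% to 59.2%). At 50 to 500 kb it was the lower around 63.3% (61.1% to 65.5%) and 51.4% (50.6% to 52.2%). There the covered length of DHT peaks was 0.971 times that of untreated peaks around the peaks without DHT and 1.03 times around the others. Within score classes the shares at 50 to 500 kb were 61.9% and 50.6% at 150 to 200, 66.2% and 51.2% at 200 to 300, and 67.1% and 53.4% at 300 to 500. Flanks of neighbouring peaks overlap, so these intervals are too narrow.

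**Figure D2:**
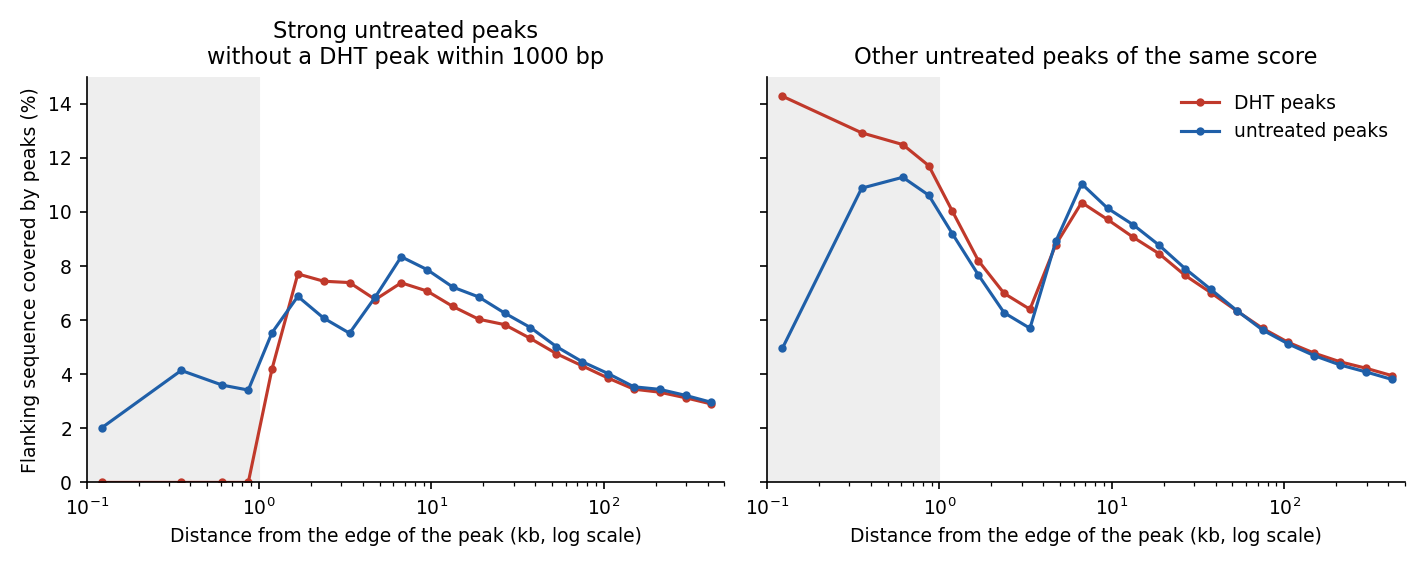
Percentage of flanking sequence covered by DHT peaks (red) and untreated peaks (blue) against distance in kb (log scale) from the edges of the 1842 strong untreated peaks without a DHT peak (left) and of the 16699 others (right). The shaded first kb was used to choose the peaks, so DHT coverage is 0 there on the left; beyond it DHT coverage is 4.19% at 1000 to 1412 bp, against 10.03% on the right, and 7.71% at 1412 to 1995 bp, against 8.20%.

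Weaker untreated peaks up to 20 kb away had a DHT counterpart about as often as those at the same distance from other strong peaks. Those scoring under 150 at 2 to 5 kb from a peak without DHT, far enough that their own 1000 bp margin lay outside the emptied stretch, numbered 1146. Of them 69.1% (66.4% to 71.7%) had a DHT peak within 1000 bp. At the same distance from the other strong peaks the share was also 69.1% (68.1% to 70.1%), of 8504. At 5 to 10 kb the shares were 71.0% (69.1% to 72.8%) and 72.1% (71.4% to 72.8%), and at 10 to 20 kb they were 68.2% (66.7% to 69.6%) and 69.8% (69.1% to 70.5%). At 20 to 50 kb the shares were 68.6% (67.6% to 69.6%) and 63.6% (63.0% to 64.3%), higher for the peaks near those without DHT. Distance was taken to the nearest peak of each set separately, so the same weaker peak can enter both shares. A weaker peak at 20 to 50 kb from a peak without DHT may have another strong peak closer by. The density of strong peaks around was thus not matched, and the difference cannot be credited to nearness to a peak without DHT. Among all 99023 weaker untreated peaks the share was 63.5% (63.2% to 63.8%), lower than at any of these distances from a peak without DHT.

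Blocks of several untreated peaks around a peak without DHT mostly held DHT peaks, though less often than blocks at large, a direction that the choice of peaks favours. Untreated peaks at most 5 kb apart were joined into blocks, of which 1780 held a peak of this kind. A DHT peak overlapped 993 of them (55.8%), against 93.6% of the 14709 blocks with any strong peak and 61.3% of all 57255 untreated blocks. Since the rule empties the sequence at the peak itself, a lower share than among blocks with any strong peak is built in. The rule also favours a lower share than among all untreated blocks of the same size. A single peak made up 502 of the 1780 blocks, and none of these could be overlapped. Of the 1278 blocks with at least 2 peaks, 77.7% were overlapped by a DHT peak and 285 (22.3%) were not, against 12.3% not overlapped among all untreated blocks of that size. Among 896 blocks of 3 or more peaks 81 (9.04%) had no DHT peak, against 3.92% of all untreated blocks of that size. Among 434 blocks of 5 or more peaks 5 (1.15%) had none, against 0.375%. For blocks with any strong peak the shares without a DHT peak at those sizes were 3.01%, 1.22% and 0.162%. The block with the most peaks, 35 on chromosome 14 from 90423549 to 90500963, held 1 peak without DHT and was covered over 15324 bp by DHT peaks and 19535 bp by untreated peaks.

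The blocks without any DHT peak that covered most sequence were few and short. On chromosome 1, from 44034960 to 44050283, 2 untreated peaks covered 11408 bp, and the nearest DHT peak was 5796 bp away. On chromosome 7, from 4820273 to 4834601, 4 untreated peaks covered 6788 bp, with the nearest DHT peak at 8939 bp. On chromosome 11, from 63961966 to 63972803, 3 covered 5497 bp, with a DHT peak as near as 443 bp to the edge of the block. On chromosome 19, from 14262174 to 14270904, 2 covered 5317 bp, with the nearest DHT peak at 2314 bp and a strong peak that scored 281. The next 6 of the 10 largest covered 3624 bp or less.

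Peaks without DHT stood more apart from other untreated peaks. The nearest other untreated peak was at a median of 2490 bp (2303 to 2625 bp), against 1528 bp (1480 to 1576 bp) for the other strong peaks. Another untreated peak lay within 1 kb of 20.4% of them, against 40.9% of the others, and within 5 kb of 72.7%, against 79.01%. Those standing alone in their block were 27.3% (25.3% to 29.3%), against 20.99% (20.4% to 21.6%), and those with a peak of the block on both sides were 25.8%, against 30.3%. A neighbouring untreated peak often has a DHT peak of its own, which the 1000 bp margin would then count, so spacing is not free of the rule. When only an overlapping DHT peak was counted, the share with another untreated peak within 5 kb was 80.3% without DHT and 78.0% with it, the opposite order. With both lists joined at 1 kb it was 64.7% and 64.0%.

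Strong peaks in sparsely marked surroundings lacked a DHT peak more often. The strong peaks were divided into 4 groups of nearly equal size by the untreated coverage at 5 to 50 kb from their edges, which leaves out the margin that the rule used. In the sparsest group, with up to 4.29% covered, 671 of 4635 had no DHT peak (14.5%, 13.5% to 15.5%). The next groups had 11.2% and 8.27%, and the densest, with 10.9% to 36.8% covered, had 267 of 4637 (5.76%, 5.12% to 6.47%). Among peaks under 500 bp wide the shares were 22.3% in the sparsest group, 18.9% and 15.3% in the next and 11.1% in the densest. DHT peaks were also fewer around the peaks without DHT, with a median of 13 within 50 kb (quartiles 8 and 18), against 16 around the others (11 and 21). Part of that difference is built in, because the count takes in the peak and its 1000 bp margin. The rule allows no DHT peak there for the former and requires one for the latter. Other untreated peaks within 50 kb had medians of 13 and 14. What part the lower density of DHT peaks has in the shares was not tested.

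**Figure D3:**
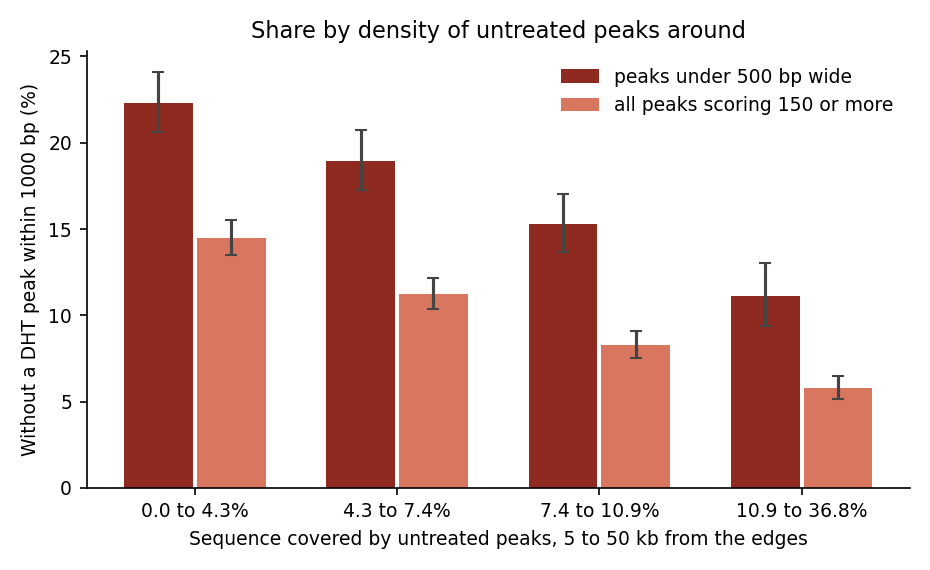
Percentage of strong untreated peaks without a DHT peak within 1000 bp (vertical axis), in 4 groups of strong peaks by the sequence covered by untreated peaks at 5 to 50 kb (horizontal axis), for peaks under 500 bp wide (dark) and all strong peaks (light), with 95% Wilson intervals. Both sets of bars are lower in each denser group, at 22.3% to 11.1% and 14.5% to 5.76%.

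Peaks without DHT were mostly scattered one by one. The 1842 peaks fell into 1787 stretches between consecutive DHT peaks, of which 1734 held 1, 51 held 2 and 2 held 3. The pair of stretches with 3 were found on chromosome 3 (107926922 to 107934167) and chromosome 21 (22830910 to 22851511). These stretches had a median length of 12736 bp, against 7212 bp for all gaps of over 2000 bp between DHT peaks. A greater length is built in. Such a stretch must exceed 2000 bp by the width of its peak, and a longer gap has more room for a peak. Where the nearest other strong untreated peak was over 2 kb away, that neighbour also lacked a DHT peak in 12.6% of cases (216 of 1712, 11.1% to 14.3%). For the other strong peaks the share was 9.73% (1424 of 14638, 9.26% to 10.2%). The first share was somewhat above the second and above the 9.93% of all strong peaks. The pairs were not matched for score, width or local density, and the rule defines both peaks of a pair, so this is a description only. Closer neighbours were left out because their emptied margins meet. Some neighbours farther apart still share a stretch without DHT peaks, as on chromosome 21, and were kept.

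Chained at 50 kb or less, 1379 of the 1842 (74.9%) stood alone, 174 groups held 2, 23 held 3, 9 held 4 and 2 held 5. The 34 groups of 3 or more took in 115 peaks (6.24%) and spanned 10.2 to 85.3 kb. All 34 had DHT peaks within their span, so none was a stretch without DHT peaks. DHT peaks covered less of the span than untreated peaks in 32 of them and more in 2, a direction that the choice of peaks favours. In 5 of the 34 every strong untreated peak lacked a DHT peak. Chromosome 3 held 6 groups, and chromosomes 4 and 14 held 4 each. Neither these groups nor the stretches above were counted for equally many other strong peaks, so the scatter has no value beside it.

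The groups of 5 lay on chromosomes 21 and 5. The group on chromosome 21, from 22794297 to 22845616, had 8 DHT peaks over 3438 bp and 15 untreated peaks over 6576 bp. Its 5 peaks without DHT were 237, 393, 433, 377 and 257 bp wide and scored 264, 159, 276, 216 and 181. The last 3 followed each other inside 1 stretch with no DHT peak, while 6 of the 8 DHT peaks in the span scored at least 150, the highest 592. The group on chromosome 5, from 54690246 to 54737531, had 9 DHT peaks over 4375 bp and 15 untreated peaks over 7634 bp. Its 5 peaks scored 203, 167, 158, 198 and 197, each with a DHT peak at 1050 to 2406 bp. There 3 of the DHT peaks scored at least 150, the highest 366.

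The groups of 4 were of the same kind. The highest-scoring one lay on chromosome 20 from 37128051 to 37205897, with scores up to 296. Next came one on chromosome 4 from 103507719 to 103588101, with scores up to 292. On chromosome 20, DHT peaks covered 6899 bp and untreated peaks 8908 bp, and on chromosome 4 they covered 6794 and 10727 bp. On chromosome 3, from 154801924 to 154880144, 4 of 14 strong untreated peaks lacked a DHT peak, and coverage was 10089 bp by DHT peaks and 16272 bp by untreated peaks. The group on chromosome 3 from 107880903 to 107931408 was sparse, with 5 DHT and 7 untreated peaks. Coverage there was 1320 and 2074 bp, and 4 of its 5 strong untreated peaks lacked a DHT peak. The remaining groups of 4 lay on chromosomes 1, 4, 5, 12 and 13.

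**Figure D4:**
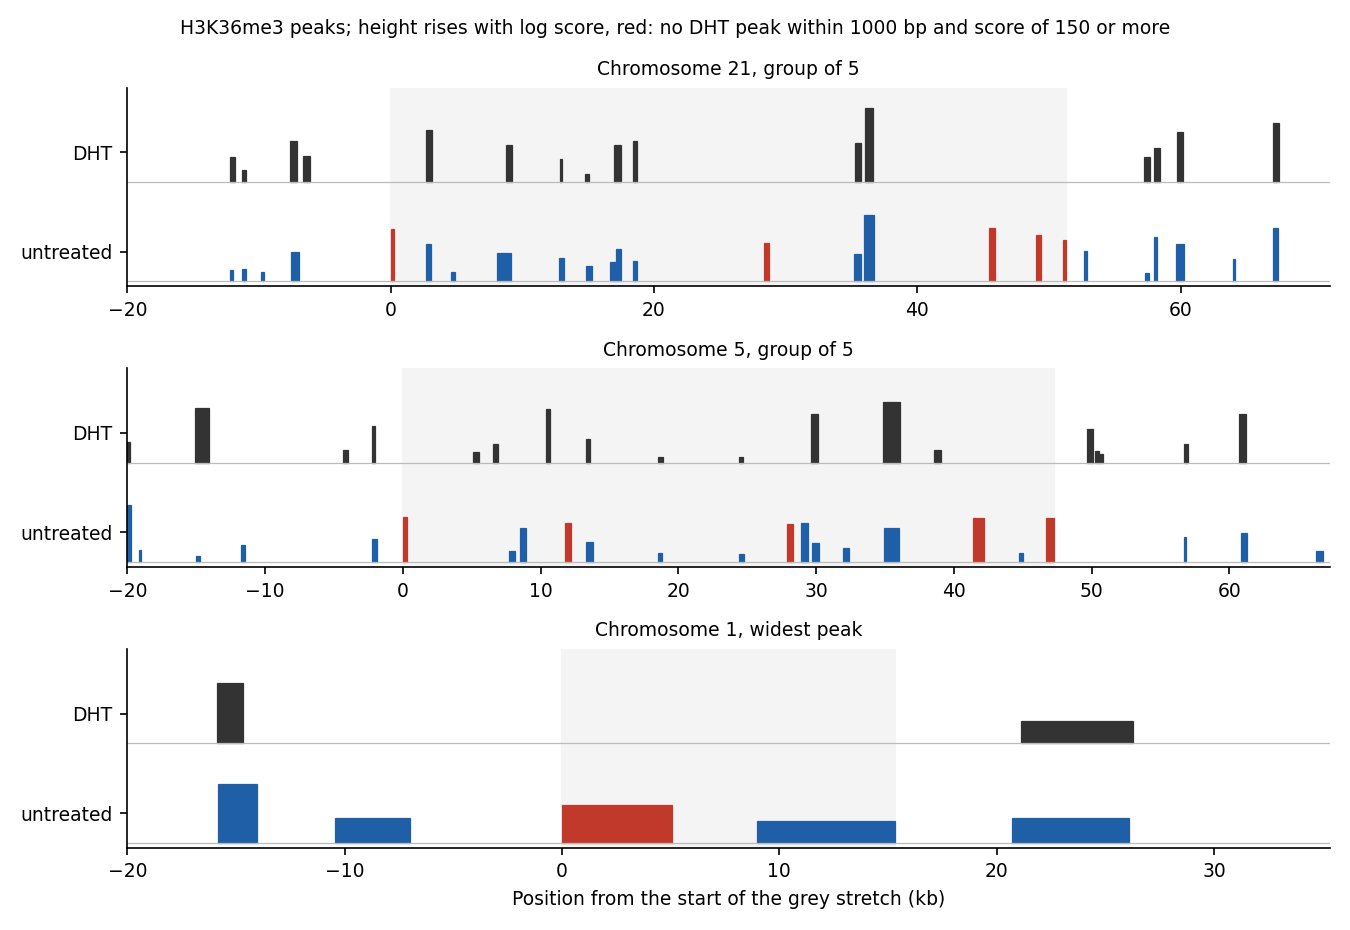
Peaks of the DHT library (upper row of each panel) and the untreated library (lower row) along 3 stretches, drawn to scale in kb from the start of the grey stretch, with height rising with the logarithm of the score up to a ceiling. Red marks strong untreated peaks without a DHT peak within 1000 bp: 5 in the group on chromosome 21, 5 in that on chromosome 5, each among DHT peaks, and the widest one, on chromosome 1, in a block without DHT peaks.

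The lowest shares of strong peaks without DHT were on gene-rich chromosomes, though not on all of them. The share was 5.26% on chromosome 22 (19 of 361), 5.75% on 19 (45 of 783), 6.98% on 16 (33 of 473) and 7.01% on 17 (59 of 842). Chromosome 11, which had 9.64 protein-coding genes per Mb, more than 16 and 22, had a share of 10.4% (104 of 1001, 8.65% to 12.4%), an interval that holds the 9.93% of all strong peaks. The share was highest on chromosome 13, at 14.3% (38 of 265), X, at 13.5% (39 of 289), 8, at 12.5% (101 of 809), and 18, at 11.8% (51 of 431). Intervals of many chromosomes overlap, among them those of 13 (10.6% to 19.1%) and 1 (8.31% to 11.0%), while those of 13 and 19 (4.32% to 7.60%) do not. Chromosome 1 had the most such peaks, 179, at a share of 9.56%. Y had 3 of 34.

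Across the 24 chromosomes the share was lower where protein-coding genes per Mb were more numerous (Pearson r = -0.62, Spearman rho = -0.67, and -0.49 and -0.58 without chromosomes 17 and 19). Genes were counted in RefSeq on GRCh38.p14, and span runs from position 1 to the last peak, which lowers the density of 7 chromosomes that have no peak in their first Mb. Over the other 17 the values were r = -0.79 and rho = -0.81. Chromosomes are not replicates and share both libraries. Over the 6 chromosomes with the most genes per Mb (19, 17, 11, 16, 22 and 20) the share was 7.70% (6.91% to 8.56%), and over the 6 with the fewest (21, 8, 4, 18, 13 and Y) it was 12.02% (10.9% to 13.3%). Untreated peaks on gene-rich chromosomes were also wider: the comparison peaks had a median of 1127 bp on chromosome 19 and 533 bp on 13. Among strong peaks under 500 bp the share was 12.1% on chromosome 19 (16 of 132), 14.1% on 17 (31 of 220) and 23.2% on 13 (32 of 138). Others departed from that order. Gene-rich chromosomes 22 and 11 had 16.7% (9 of 54) and 18.9% (61 of 322). Chromosome 10, with fewer genes per Mb than either, had 13.97% (44 of 315). Y had 30% from 3 of 10 peaks. In that narrow set the relation with gene density was r = -0.59 and rho = -0.52 over all 24 and r = -0.58 and rho = -0.31 over the 17.

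**Figure D5:**
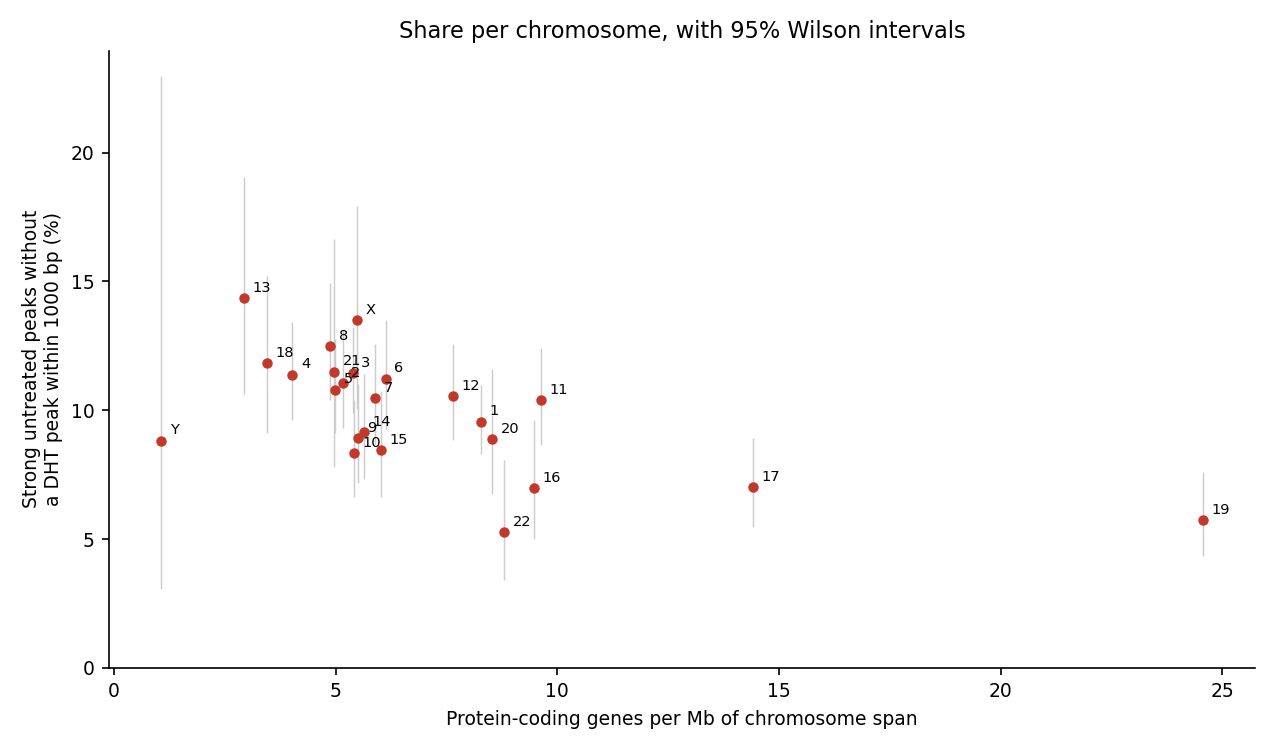
Percentage of strong untreated peaks without a DHT peak within 1000 bp on each of 24 chromosomes (points, labelled), with 95% Wilson intervals, against protein-coding genes per Mb of chromosome span. The share is 14.3% on gene-poor chromosome 13 and 5.75% on gene-dense chromosome 19; Y rests on 34 strong peaks.

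Peaks without DHT were also fewer near chromosome ends, by an amount that depended on width. Of the 1842, 119 lay within 5 Mb of an end (6.46%, 5.43% to 7.68%), against 1760 of the others (10.5%, 10.1% to 11.01%). Within 2 Mb the shares were 3.09% and 5.32%, and within 10 Mb they were 12.3% and 18.4%. Outside chromosomes 16, 17, 19 and 22, 6.83% of strong peaks near ends lacked DHT, and 10.8% of those elsewhere. Within strong peaks under 500 bp these were 14.0% near ends (10.9% to 17.7%) and 18.01% elsewhere (17.1% to 18.96%) over all chromosomes. Among wider ones they were 4.26% (3.35% to 5.42%) and 5.31% (4.89% to 5.76%), and the intervals of both pairs overlap. With the others weighted to the same widths and scores, 7.79% of them lay within 5 Mb of an end, so the difference from the peaks without DHT was -1.33 points in place of -4.08. An end was taken as position 1 or the end of the last peak, and on 7 chromosomes the first peak lies over 1 Mb in.

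The strongest peaks without DHT were spread over 7 chromosomes. The highest lay on chromosome 12 from 81813552 to 81814126, 575 bp wide with a score of 872, rank 46 among all untreated peaks. Its nearest DHT peak was 4898 bp away and scored 128, and within 50 kb of its edges DHT peaks covered 5256 bp and untreated peaks 6924 bp. The next lay on chromosome 9 from 96411788 to 96413368, 1581 bp wide with a score of 657. DHT peaks came within 1936 bp on one side and 3157 bp on the other and covered 21703 bp within 50 kb, against 12349 bp for untreated peaks. On chromosome 19, from 4035285 to 4037175, a peak of 1891 bp scored 512, and 12381 bp were covered by DHT peaks and 7867 bp by untreated peaks around it. On chromosome 3 a peak from 121398471 to 121399119 scored 502, with 9190 and 8438 bp covered. At 3 of these 4 positions more sequence was covered by DHT peaks than by untreated peaks within 50 kb.

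A further 6 completed the 10 highest. On chromosome 3, from 41266433 to 41267221, a peak of 789 bp scored 471. It had another untreated peak at 149 bp and its nearest DHT peak, with a score of 57.3, at 5208 bp. On chromosome 4, from 142150734 to 142150880, a peak of 147 bp scored 446 and had no DHT peak within 122789 bp. On chromosome 6, from 28331687 to 28333967, a peak of 2281 bp scored 432 between DHT peaks at 1838 and 1797 bp. The others lay on chromosome 1 from 162775304 to 162775668 and from 155891024 to 155891409 and on chromosome 12 from 107208729 to 107209179, with scores of 432, 418 and 421. Around the 10, DHT peaks covered less sequence within 50 kb than untreated peaks in 5 cases and more in 5.

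The widest peaks without DHT had scores near those of all peaks without DHT, and none was among the 10 highest-scoring. The 10 widest ran from 2523 to 5059 bp and scored 152 to 228, with a median of 171. All 1842 had a median score of 181, with quartiles of 162 and 213. Of the 10 widest, 5 lay within 5 Mb of a chromosome end and 5 on chromosome 17 or 19. The same counts were not made for other peaks of such width. The widest, on chromosome 1 from 44034960 to 44040018, scored 157 and had its nearest DHT peaks at 14697 and 16061 bp. Within 50 kb, DHT peaks covered 15375 bp and untreated peaks 29467 bp. On chromosome 11, from 67198539 to 67202537, a peak of 3999 bp scored 152, and a DHT peak of 4445 bp began or ended 2172 bp away. On chromosome 14, peaks from 105255565 to 105259188 and from 104167905 to 104170896 each stood alone in their block, with scores of 171 and 177. Those on chromosome 17 lay from 8382732 to 8386242, from 80208374 to 80211713 and from 42291431 to 42294454. Those on chromosome 19 lay from 58810210 to 58813152 and from 50305967 to 50308830. The peak at 58810210 had a DHT peak scoring 698 at 3333 bp. The last of the 10 lay on chromosome 1 from 1417624 to 1420146.

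A few peaks were far from any DHT peak. Of the 29 with no DHT peak within 50 kb, 9 had no other untreated peak within 50 kb either, and 20 had one. Their median width was 402 bp and their median score 174, and none lay within 5 Mb of a chromosome end. The farthest, on chromosome 12 from 92270745 to 92271102, scored 168 and had DHT peaks at 259525 and 267175 bp, with its nearest untreated peak at 260327 bp. On chromosome 7, from 112753938 to 112754341, a peak scored 189 with the nearest DHT peak at 198674 bp. On chromosome 1, from 189110191 to 189111005, a peak of 815 bp scored 243 with the nearest at 194314 bp.

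Some of these distant positions held several untreated peaks. On chromosome 6, from 127608238 to 127608893, a peak scored 365 with another untreated peak at 171 bp and no DHT peak within 161495 bp. On chromosome 1, from 172410942 to 172411395, a peak scored 264 with another at 94 bp and no DHT peak within 121854 bp. The chromosome 4 peak at 142150734 and one on chromosome 5 from 128442549 to 128442870 each lay in a block of 3 untreated peaks without DHT. The other 3 of the 10 farthest were a peak of 520 bp on chromosome 11 (105246103 to 105246622), one of 672 bp on chromosome 3 (103527078 to 103527749) and one of 1032 bp on chromosome 1 (239389405 to 239390436).

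The same rule turned round gave a set of similar size at the same score limit and a smaller one at the same rank. Of 24805 DHT peaks scoring at least 150, 2148 (8.66%, 8.32% to 9.02%) had no untreated peak within 1000 bp, against 36.7% of DHT peaks of any score. This comparison holds only as far as the score means the same in both lists. Taking DHT peaks from a score of 172.66 leaves as many as in the untreated list to within ties. The share was then 6.14% (1139 of 18543), a smaller set than the 1842 untreated peaks without DHT. The untreated-only peaks were 0.583 times as wide at the median as their comparison peaks, 388 and 665 bp, and the DHT-only peaks 0.755 times, 397 and 525 bp. Within 5 Mb of chromosome ends the untreated-only share differed from its comparison peaks by -4.08 points (-5.22 to -2.78) and the DHT-only share by -1.65 points (-2.95 to -0.225). Neither value was matched for width. Weighted to score and width, the untreated-only difference was -1.33 points (-2.36 to -0.112). The DHT-only set was not weighted in this way, so which set was fewer near ends for its width is not known. On chromosomes 16, 17, 19 and 22 the untreated-only share was 8.47%, against 13.8%, and the DHT-only share 14.01%, against 14.8%. Those chromosomes had the lowest shares of strong untreated peaks without DHT. Chromosome 11, richer in genes per Mb than 16 and 22, was left out. A larger untreated-only difference there is thus favoured by the choice of chromosomes. Across chromosomes, the share of strong DHT peaks without an untreated peak gave r = -0.26 and rho = -0.18 with gene density over all 24, and r = -0.40 and rho = -0.35 over the 17. Both sets are defined from the same lists, so they are not independent of each other, and the difference between them was not tested.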

How the data were processed

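H3K36me3 ChIP-seq peaks of LNCaP cells were compared between DHT and no treatment, 1 library each. The input library was not analysed here. For each library the authors deposited a peak list with coordinates and a score. The peak names show MACS as the caller and the file names hg19 as the build. The sources used here do not give the MACS version, its parameters, the aligner or the control.

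Peaks on mitochondrial DNA, 3 in the DHT list and 4 in the untreated list, were set aside. Distances are gaps between peak edges, and coordinates count from 1. Members were found in NumPy 2.4.6 (Python 3.11.15, pandas 2.3.3, SciPy 1.17.1), and bedtools 2.31.1 closest gave the same 1842. Distance, coverage and joining functions were tested on simulated data. Named peaks are, by rule, the 10 highest-scoring, 10 widest and 10 farthest from DHT peaks, and groups of at least 3 within 50 kb. Members, lists and this rule were chosen with earlier results of these data known. Groups by local density, width classes and gene density were chosen after seeing the data. Gene lists planned for an hg19 annotation were not used.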

Additional observations from a re-analysis of the deposited data

How the results depend on the processing

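The share of strong untreated peaks without a DHT peak, 9.93%, depends on the margin, on the lowest score and on which DHT peaks count. It was 17.04% without overlap, 12.9% at 500 bp, 6.64% at 2000 bp and 2.999% at 5000 bp. At scores of at least 100, 200 and 300 it was 17.5%, 6.30% and 2.62%. Against the higher-scoring 50% of the DHT list it was 19.95%, and within 1500 bp of the middle of the peak, an alternative chosen after seeing the data, it was 8.92%. With both lists joined at 1 kb it was 9.80%.

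Peaks without DHT were narrower than the others under all 11 alternatives run. The difference of medians, -277 bp, moved to -293 bp without overlap, to -221, -336 and -496 bp at scores of at least 100, 200 and 300, to -256 bp against the higher-scoring DHT peaks, to -678 bp with both lists joined and to -225 bp with others weighted to the same score classes. A longer joined peak has more sequence in which a DHT peak would be counted. Part of the difference with joined lists is thus built in. Another untreated peak within 5 kb was less frequent by 6.26 points (-6.26). This turned to 2.36 points without overlap and 0.727 points with joined lists, and was -1.79, -13.1 and -33.2 points at 500, 2000 and 5000 bp, -13.97 and -3.41 points at scores of at least 100 and 200, -3.73 points against the higher-scoring DHT peaks and -11.1 points weighted to score and width. The margin takes part in this, since it also empties the sequence next to the peak.

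The difference in peaks within 5 Mb of an end, -4.08 points, was -6.37 points at a margin of 5000 bp and -1.33 points weighted to score and width, a weighting added after seeing the data. The share with DHT coverage above untreated coverage at 5 to 50 kb was 34.4% and 41.1%, a difference of -6.69 points. It became -9.80 points at a margin of 5000 bp and -3.80 points weighted to score and width. The other 10 alternatives for each kept both within their counting intervals. At scores of at least 300 only 80 peaks lacked DHT, so intervals there were wide. No paired analysis was possible because each condition has 1 library, and depth is unknown.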
